A study of Mus musculus with 6 samples.

Results

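The genes described here are 10 components of elastic fibres and of the microfibrils that carry them, Eln, Fbn1, Fbn2, Mfap2, Mfap4, Mfap5, Fbln1, Fbln2, Fbln5 and Lox. They were taken by symbol from a table of 55481 genes, in which each symbol had 1 row. The table held bulk RNA sequencing of cells isolated from squamous cell carcinomas of mouse skin, induced by DMBA, a carcinogen, followed by TPA, a tumour promoter. The 2 Itga6hi CD80pos libraries came from cells with high Itga6, the integrin alpha 6 chain of basal epidermal cells, and with CD80, a co-stimulatory ligand, and the series text calls these tumour stem-like. The 2 Itga6low CD80neg libraries came from cells with low Itga6 and no CD80, which the series text calls differentiated cancer cells. Both populations share the tumour model and the low-input library kit. The labels give no mouse strain, genotype, age or time after treatment, and name no marker of the sort beyond Itga6 and CD80. Nothing in them ties a replicate to its own animal, and the p-values therefore cover the spread between libraries, which may be technical. Another labelled population, Itga6hi CD80neg, was not analysed here. Values are TPM, transcript levels corrected for length and scaled to a fixed total, from which the sequencing depth cannot be read, so that depth is unknown.

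An elastic fibre has a core of elastin, secreted as tropoelastin and cross-linked through its lysines by lysyl oxidases, on a scaffold of fibrillin microfibrils. Microfibril-associated glycoproteins bind the fibrillins, and fibulins link tropoelastin, microfibrils, lysyl oxidases and cell surfaces. In skin the dermal network is made mainly by fibroblasts, and some fibulins are also found in the basement membrane zone under the epidermis.

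Apart from 1 fibulin, these genes were lower in Itga6hi CD80pos cells than in Itga6low CD80neg cells, where every one of the 10 was above 1 TPM in both libraries. Of the 10 genes, 9 were called lower and 0 higher by limma, with p-values adjusted by Benjamini-Hochberg and called under 0.05, and 0 were higher at an unadjusted p under 0.05. The background of lower calls was 9.48% of 13474 genes tested, and 57% were called higher. The libraries of the 2 groups did not overlap for the same 9 genes, against 12.9% of tested genes that were lower without overlap. In Itga6hi CD80pos, 8 of the 10 genes lay under 1 TPM in both libraries. These 8 passed the filter, at least 1 TPM in 2 or more of the 4 libraries, through Itga6low CD80neg alone. For them the filter fixed the lower direction and the lack of overlap in advance, so neither is support. The other two, Fbln1 and Fbln2, together made up 98.1% and 97.9% of the summed TPM of the 10 genes there. That sum was 108 and 94.1 TPM in Itga6hi CD80pos against 1233 and 835 TPM in Itga6low CD80neg.

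**Figure D1:**
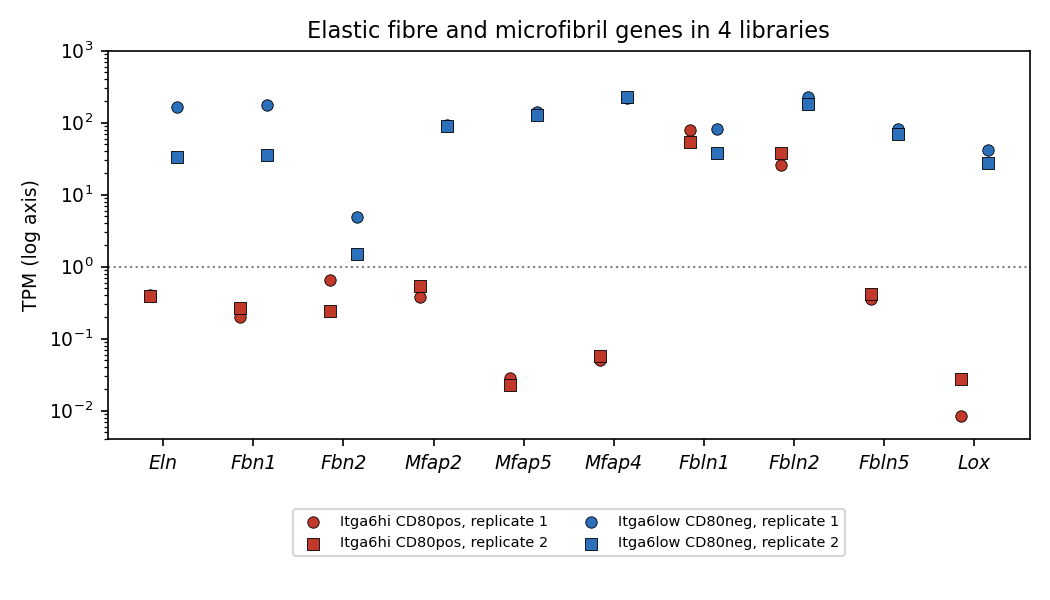
TPM (log axis) of the 10 genes in each library, with circles for replicate 1, squares for replicate 2, red for Itga6hi CD80pos and blue for Itga6low CD80neg; the dotted line marks 1 TPM. Red symbols lie under the line for 8 genes and overlap the blue ones for Fbln1 alone.

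Markers of several cell types differed between the populations as well. Summed over 10 fibroblast markers, the level was 12.0 and 15.3 TPM in Itga6hi CD80pos against 9302 and 5842 TPM in Itga6low CD80neg. All 10 of 10 were called lower, beside 9.48% of all tested genes. The same 5 reached 1 TPM in both Itga6hi CD80pos libraries. The rest passed the filter through Itga6low CD80neg alone, which fixed their direction. That holds for every marker below that lay under 1 TPM in both Itga6hi CD80pos libraries. Col3a1, a fibrillar collagen and the highest of the fibroblast markers, had 2.22 and 2.56 TPM against 2963 and 2123 TPM. Fap, chosen after its values were seen, was listed at 0 in Itga6hi CD80pos replicate 1. Haemoglobin genes took 0.0185% and 0.00621% of TPM in Itga6hi CD80pos against 70.9% and 50.4% in Itga6low CD80neg, with Hbb-bs, an adult beta-globin gene, at up to 328205 TPM. The 6 keratinocyte markers summed to 42342 and 42915 TPM against 1566 and 4345 TPM, led by Krt14, a basal keratin. All 6 were called higher on deposited TPM, beside 57% of all tested genes, and 4 were so under every scaling. Krt14 lost its call with median-of-ratios (limma adjusted p = 0.207) and with haemoglobin left out (adjusted p = 0.0679). Smooth muscle and pericyte markers summed to 62.9 and 51.2 TPM against 332 and 497 TPM, with 6 of 8 lower. Tagln, an actin-binding protein of smooth muscle, was the highest of these by mean in Itga6low CD80neg, Acta2, smooth muscle actin, was so in Itga6hi CD80pos (30.2 and 30.1 TPM), and Notch3 was higher in Itga6hi CD80pos, a call lost under the other scalings (both chosen after their values were seen). Endothelial markers stayed at or under 10.9 TPM in sum in every library, with Pecam1 the highest by mean. On deposited TPM Pecam1, Cdh5, Kdr, Tie1 and Emcn were higher in Itga6hi CD80pos without overlap. Tek went the other way, at 0.182 and 0.200 TPM against 6.05 and 0.937 TPM. Of these only Pecam1 was tested, and it did not pass (limma adjusted p = 0.0904). Myeloid markers summed to 1070.4 and 740.3 TPM against 589.8 and 2587 TPM, nearly all of it S100a8 and S100a9, which keratinocytes also make. Of 4 tested myeloid markers 2 were lower, and 5 of all 7 were lower without overlap. Over all tested genes, 9.48% were called lower and 12.9% were lower without overlap. T cell (Trac), melanocyte and Schwann cell (Dct) and skeletal muscle (Acta1) markers summed to at most 1.504 TPM per list in Itga6hi CD80pos and between 1.82 and 116 TPM in Itga6low CD80neg. Itga6 itself was at 178 and 339 TPM against 1.496 and 1.65 TPM, and Cd80 at 6.24 and 1.89 TPM against 0.642 and 0.563 TPM. Both were called higher on deposited TPM, and Itga6 kept that call under every scaling. Cd80 lost it with median-of-ratios, quantile normalization and haemoglobin left out (limma adjusted p of 0.408, 0.136 and 0.379). In bulk RNA, fewer cells of a type and less RNA per cell cannot be told apart, and the part of the mix of cells in the differences below was not tested.

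Eln, the gene of tropoelastin (chromosome 5, 134702593 to 134747323, minus strand, GRCm38), stood at 0.406 and 0.386 TPM in Itga6hi CD80pos and at 164 and 33.9 TPM in Itga6low CD80neg. The groups did not overlap, and both Itga6low CD80neg libraries were high but far apart. The difference in log2(TPM + 1), Itga6hi CD80pos minus Itga6low CD80neg, was -5.77 ± 0.74 (SE), with a limma adjusted p of 0.00542. On this scale a gene that is near 0 in a group shows a smaller change than the ratio of its TPM.

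Fbn1, the main fibrillin of mature microfibrils (chromosome 2, 125300594 to 125507993, minus strand), was at 0.199 and 0.265 TPM against 175 and 35.6 TPM. Its Itga6low CD80neg replicate 1 was the high library, as for Eln. The log2 difference was -6.03 ± 0.75 (SE), limma adjusted p = 0.00517. Fbn2, a fibrillin best known from development, was at 0.654 and 0.246 TPM against 4.91 and 1.52 TPM. It was the lowest of the 10 genes in Itga6low CD80neg, and its groups did not overlap, with both Itga6hi CD80pos libraries under 1 TPM. Its log2 difference was -1.43 ± 0.47 (SE), limma adjusted p = 0.0426, and the call was lost without the filter on low values (adjusted p = 0.177). Fbn1 exceeded Fbn2 by 35.7 and 23.5 times in the Itga6low CD80neg libraries, whereas in Itga6hi CD80pos both fibrillins were under 1 TPM. The ratio of Eln to Fbn1 was 0.938 and 0.953 in the Itga6low CD80neg libraries, although each gene differed more than 4-fold between them.

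Mfap2 and Mfap5 encode the small microfibril-associated glycoproteins MAGP1 and MAGP2, which bind fibrillin. Mfap2 (chromosome 4, 141010418 to 141015984, plus strand) had 0.381 and 0.540 TPM against 91.5 and 91.3 TPM, and Mfap5 (chromosome 6, 122505845 to 122529290, plus strand) had 0.0288 and 0.0225 TPM against 143 and 128 TPM. In both genes the groups lay far apart, and on deposited TPM the Itga6low CD80neg libraries lay close together. With haemoglobin left out of the total, these were at 315 and 184 TPM for Mfap2 and at 491 and 258 TPM for Mfap5. The log2 difference was -5.99 ± 0.28 (SE) for Mfap2 and -7.05 ± 0.28 for Mfap5, each with a limma adjusted p of 0.00162. Mfap5 exceeded Mfap2 by 1.56 and 1.40 times in Itga6low CD80neg and was the lower of the pair in both Itga6hi CD80pos libraries.

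Mfap4, a fibrinogen-domain protein that binds elastin and fibrillin (chromosome 11, 61485431 to 61488900, plus strand), was at 0.0508 and 0.0580 TPM against 223 and 227 TPM. This was the highest mean level of the 10 genes in Itga6low CD80neg and the largest log2 difference among them, -7.74 ± 0.29 (SE), limma adjusted p = 0.00162. Its exons overlap those of Mapk7, a kinase gene on the other strand, and whether the libraries kept strand is not stated. Mapk7 was at 10.2 and 8.58 TPM in Itga6hi CD80pos and at 5.33 and 2.75 TPM in Itga6low CD80neg, so it was the higher of the pair in the first population and far under Mfap4 in the second. Exons of Eln, Fbn1, Fbn2 and Lox also overlap genes on the other strand, Gm30003, Gm9913, Gm26507 and AC161119.1. Gm30003 and Gm9913 were at or under 1.469 TPM in every library, and Gm26507 and AC161119.1 had no values by symbol.

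Lox, the lysyl oxidase that cross-links elastin and collagen, was at 0.00829 and 0.0275 TPM against 41.9 and 27.7 TPM. It was the lowest of the 10 genes by mean in Itga6hi CD80pos. Its log2 difference was -5.11 ± 0.32 (SE), limma adjusted p = 0.00195.

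The 3 fibulins gave 3 patterns, and the 250 bases before their RefSeq start sites are printed with those of Mfap2 because these 4 genes cover the range from overlap between the populations to levels under 1 TPM in 1 of them. The sequences are RefSeq's on GRCm38.p6, each at the RefSeq start nearest to the GENCODE M21 gene start, and 5 of the 10 genes had an entry in the table. The remaining entry, that of Fbn1, is not printed, and its RefSeq start lies 1555 bases from the GENCODE start. The RefSeq start of Fbln2 lies 309 bases inside the GENCODE gene, so its window falls within that annotated gene, while those of Fbln1, Mfap2 and Fbln5 lie 0, 6 and 64 bases from the GENCODE start. Capitals mark any of 4 motifs, searched on both strands: the AP-1 motif TGANTCA, the TEAD motif CATTCC, the SMAD-associated motif CAGACA, and the TATA box TATAAA.
Fbln1, chr15:85205699-85205948, plus strand: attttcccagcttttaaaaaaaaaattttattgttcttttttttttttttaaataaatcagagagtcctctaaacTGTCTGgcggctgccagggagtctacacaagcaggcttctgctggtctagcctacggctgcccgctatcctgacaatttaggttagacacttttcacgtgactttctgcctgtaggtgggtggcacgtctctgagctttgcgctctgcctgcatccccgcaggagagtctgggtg
Fbln2, chr6:91212514-91212763, plus strand: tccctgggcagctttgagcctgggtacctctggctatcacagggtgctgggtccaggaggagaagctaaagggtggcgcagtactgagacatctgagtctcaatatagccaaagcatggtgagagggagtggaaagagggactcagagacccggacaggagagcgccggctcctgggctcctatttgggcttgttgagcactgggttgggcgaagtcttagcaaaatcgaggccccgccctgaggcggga
Fbln5, chr12:101819120-101819369, minus strand: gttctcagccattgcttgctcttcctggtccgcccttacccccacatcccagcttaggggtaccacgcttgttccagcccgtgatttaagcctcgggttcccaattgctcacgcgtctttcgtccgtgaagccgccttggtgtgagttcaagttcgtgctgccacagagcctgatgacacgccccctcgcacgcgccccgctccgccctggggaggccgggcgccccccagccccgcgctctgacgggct
Mfap2, chr4:141010174-141010423, plus strand: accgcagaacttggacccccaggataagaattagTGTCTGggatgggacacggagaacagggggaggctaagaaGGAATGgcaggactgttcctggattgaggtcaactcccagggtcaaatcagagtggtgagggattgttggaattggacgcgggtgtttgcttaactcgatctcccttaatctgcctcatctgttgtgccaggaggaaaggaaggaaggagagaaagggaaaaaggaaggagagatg
The Fbln1 window held CAGACA on the other strand, 175 bases before the start, and Mfap2 held CAGACA, 216 bases before, and CATTCC, 176 bases before, both on the other strand. No motif overlapped another, and the windows of Fbln2, of Fbln5 and of Fbn1, which is not printed, held none of the 4. Over 32851 windows of this length, 17.1% held CAGACA, 12.6% CATTCC, 12.4% TATAAA and 6.75% TGANTCA. The GC content was 46.4% for Fbln1, 51.2% for Mfap2, 58.8% for Fbln2 and 65.2% for Fbln5. The windows held 7, 5, 8 and 21 CG dinucleotides in the same order, beside a median of 6 over all windows. These matches are descriptions of the windows.

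Fbln1, a fibulin of basement membranes and elastic fibres (chromosome 15, 85205949 to 85286535, plus strand), was at 80.2 and 54.5 TPM in Itga6hi CD80pos and at 82.3 and 37.5 TPM in Itga6low CD80neg. The groups overlapped fully, with the highest and the lowest library both in Itga6low CD80neg. The log2 difference was 0.24 ± 0.51 (SE) and did not pass (limma adjusted p = 0.685), with a 95% confidence interval from -1.03 to 1.52 by limma's moderated test. The sign turned under each other scaling, to -1.31 (median-of-ratios), -1.16 (quantile) and -1.14 (haemoglobin left out), and none of these passed (adjusted p of 0.179, 0.230 and 0.286). It also turned without Itga6hi CD80pos replicate 1 (-0.03) and without Itga6low CD80neg replicate 2 (-0.31).

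Fbln2, a large fibulin of basement membranes and elastic fibres (chromosome 6, 91212455 to 91272540, plus strand), was at 25.8 and 37.7 TPM against 225 and 182 TPM. It was present in both populations and did not overlap between them. The log2 difference was -2.66 ± 0.40 (SE), limma adjusted p = 0.00649, and the mean TPM was 6.41 times higher in Itga6low CD80neg. Under the other scalings the difference was larger, down to -4.20 with median-of-ratios (adjusted p = 0.00644).

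Fbln5, a fibulin that binds tropoelastin and lysyl oxidase-like enzymes (chromosome 12, 101746565 to 101819055, minus strand), was at 0.352 and 0.420 TPM against 82.5 and 70.4 TPM. Its groups lay far apart, and its Itga6low CD80neg libraries were at 284 and 142 TPM with haemoglobin left out of the total. The log2 difference was -5.80 ± 0.29 (SE), limma adjusted p = 0.00162. In Itga6low CD80neg, Fbln5 was 1.00 and 1.88 times Fbln1, whereas in Itga6hi CD80pos it was 0.00439 and 0.00770 times Fbln1. Fbln1 exceeded Fbln2 in both Itga6hi CD80pos libraries, by 3.11 and 1.45 times, and was 0.366 and 0.206 times Fbln2 in Itga6low CD80neg. These ratios do not change when all TPM of a library are multiplied by the same factor, which quantile normalization does not do.

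**Figure D2:**
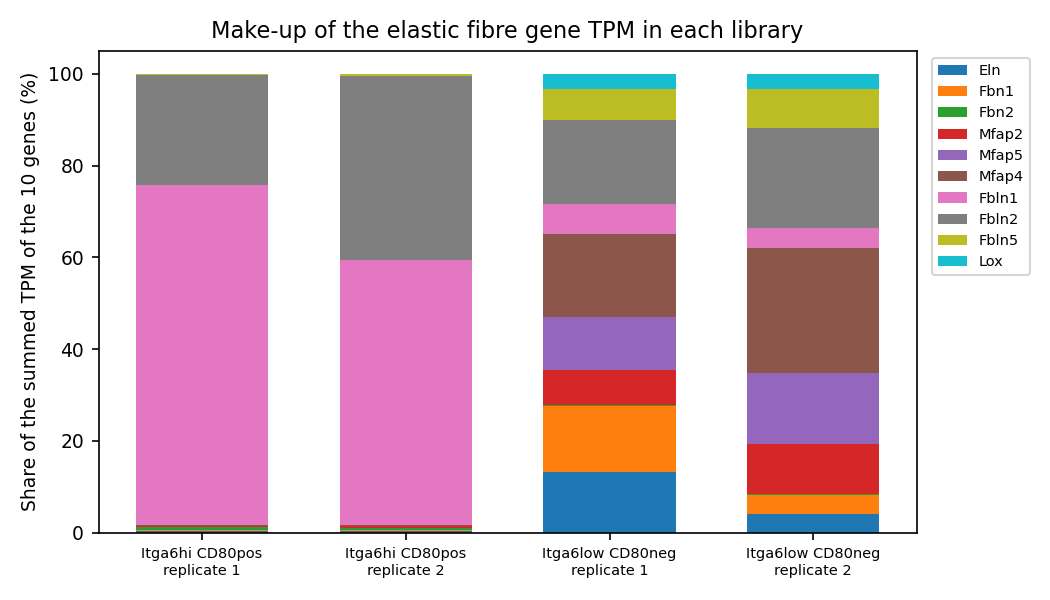
Share (%) of each gene in the summed TPM of the 10 genes, 1 bar per library, each bar totalling 100%. Fbln1 and Fbln2 fill nearly all of both Itga6hi CD80pos bars, and in Itga6low CD80neg no gene exceeds 27.2%.

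By mean level in Itga6hi CD80pos, Fbln1 came first and Fbln2 next, with no overlap between their libraries or with the genes after them. Mfap2, Fbn2, Eln and Fbln5 followed at 0.460 to 0.386 TPM, and each overlapped its neighbour in that order. Fbn1 (0.232 TPM) and Mfap4 (0.0544 TPM) stood apart from their neighbours, and Mfap5 and Lox overlapped. In Itga6low CD80neg the order by mean was Mfap4, Fbln2, Mfap5, Fbn1, Eln, Mfap2, Fbln5, Fbln1, Lox and Fbn2. There only Fbln2 and Mfap5, Mfap2 and Fbln5, and Lox and Fbn2 were neighbours whose libraries did not overlap.

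Set against fibrillar collagen, Fbln1 and Fbln2 stood far above the other genes in Itga6hi CD80pos. Per 100 TPM of Col1a1, Col1a2 and Col3a1 summed, Fbln1 was at 1220.0 and 725 TPM in Itga6hi CD80pos and at 1.16 and 0.975 TPM in Itga6low CD80neg. Fbln2 was at 392.2 and 501 TPM against 3.17 and 4.72 TPM. Mfap4 went the other way, at 0.773 and 0.772 TPM against 3.14 and 5.89 TPM, as did Mfap5, at 0.438 and 0.2999 TPM against 2.01 and 3.33 TPM, and Lox, at 0.126 and 0.367 TPM against 0.590 and 0.720 TPM. Eln, Fbn1, Fbn2, Fbln5 and Mfap2 were higher per collagen in both Itga6hi CD80pos libraries. For these genes, and for Mfap4, Mfap5 and Lox, both sides of the quotient are small there. The collagen sum was 6.57 and 7.52 TPM against 7100.0 and 3850 TPM. Mfap4, Mfap5 and Lox had the smallest levels, at or under 0.0580 TPM in Itga6hi CD80pos. These quotients were not tested.

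How TPM were scaled changed the size of the differences but kept 8 of the 9 lower calls. On deposited TPM the median log2 difference of all tested genes was 1.27, with 7686 genes higher and 1277 lower, and the median of the 10 genes was -5.78. Median-of-ratios scaling gave 839 higher and 1829 lower, a median of -0.01 over all genes and -6.73 over the 10. Quantile normalization gave 1448 and 1517, with 0.27 and -6.48, and leaving haemoglobin genes out of the total gave 1040 and 1460, with 0.16 and -7.17. Under these 3 scalings 8 of the 10 genes were called lower, against a background of 13.6%, 11.3% and 10.8% of genes. The gene lost each time was Fbn2 (adjusted p of 0.0707, 0.0941 and 0.0858). With haemoglobin left out, Fbln1 was at 80.2 and 54.5 TPM against 283 and 75.7 TPM, so its groups still overlapped, and the other 9 genes did not overlap.

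**Figure D3:**
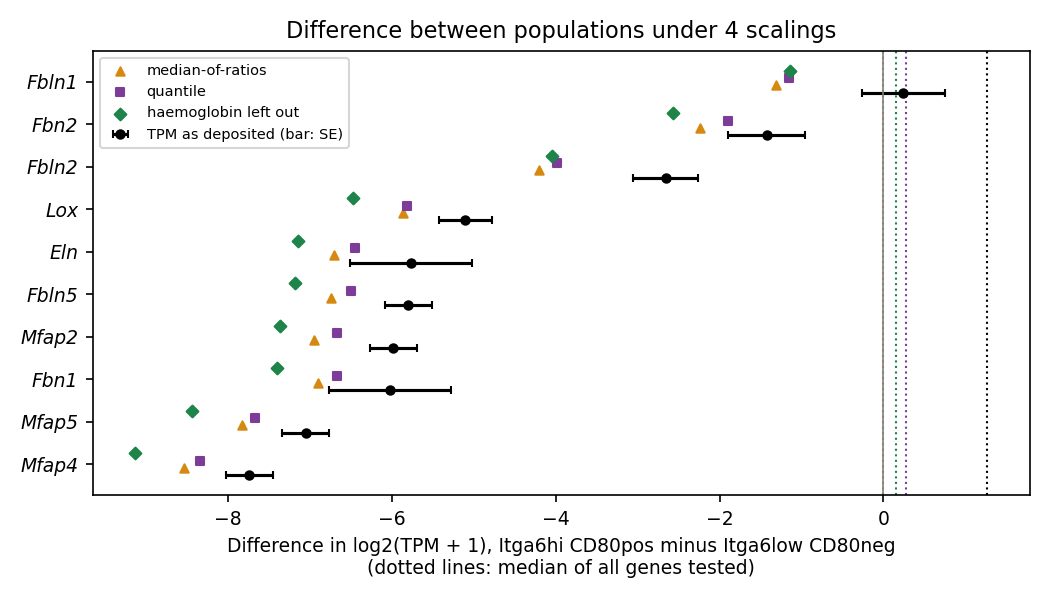
Difference in log2(TPM + 1), Itga6hi CD80pos minus Itga6low CD80neg, for each gene under 4 scalings; bars on the black points are SE, and dotted lines are the medians of all tested genes. Fbln1 is the gene whose sign turns, from 0.24 on deposited TPM to -1.31 with median-of-ratios scaling.

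The calls depended on having both Itga6hi CD80pos libraries. Without its replicate 1, limma called 0 genes of the whole table and 0 of the 10 lower (smallest adjusted p among the 10 of 0.0508), although 8 of the 10 passed 0.05 unadjusted. With its replicate 2 left out instead, 5 of the 10 were called, Mfap2, Mfap4, Mfap5, Fbln5 and Lox. The log2 differences themselves moved little, for Mfap4 to -7.74 and -7.75, for Eln to -5.78 and -5.76 and for Fbln2 to -2.39 and -2.92 in these 2 cases. With Itga6low CD80neg replicate 1 or 2 left out, they moved more for Eln, to -4.64 and -6.89, and for Fbn1, to -4.89 and -7.16. Mfap4 stayed at -7.75 and -7.73 there. Without Itga6low CD80neg replicate 1 or 2, 8 and 9 were called, with Fbn2 lost in the first case (adjusted p = 0.0831). A population with 1 library left was assumed to vary like the other.

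Of 51 other genes of the pathway 41 were tested, and 18 were lower and 5 higher, beside a background of 9.48% of all genes lower and 57% higher. With median-of-ratios scaling 23 were lower and 1 higher, with quantile normalization 21 and 2, and with haemoglobin left out 21 and 0. The share of all tested genes called lower was 13.6%, 11.3% and 10.8% in the same order. All 18 lower calls were kept under the 4 scalings while 0 of the 5 higher calls were. Those of the 18 under 1 TPM in both Itga6hi CD80pos libraries passed the filter through Itga6low CD80neg alone. Among them are Loxl1, Loxl2, Loxl3, Emilin1, Emilin2, Ltbp2, Itgb3, Ctsk and Prtn3. The filter fixed their lower direction in advance, so that direction is not support. Among cross-linking and processing genes 5 of 9 tested were lower and 1 was higher, with a median log2 difference of -2.41. The lysyl oxidase-like genes Loxl1, at 0.146 and 0.133 TPM against 103 and 58.2 TPM, Loxl2, at 0.239 and 0.240 TPM against 68.5 and 32.8 TPM, and Loxl3, at 0.141 and 0.0787 TPM against 16.2 and 9.65 TPM, were lower. So was Fkbp10, a collagen and tropoelastin chaperone, at 1.83 and 3.75 TPM against 48.9 and 36.2 TPM. Bmp1, a proteinase that activates lysyl oxidase, was at 29.0 and 70.3 TPM against 75.3 and 65.1 TPM and did not pass on deposited TPM (log2 difference -0.62, limma adjusted p = 0.317). With median-of-ratios scaling it was lower, at -2.16 (adjusted p = 0.0493). Furin, the convertase that processes fibrillin, was higher, at 61.3 and 69.6 TPM against 13.5 and 16.3 TPM. Its log2 difference was 2.06, with a limma adjusted p of 0.00684. That call was lost under the other scalings (adjusted p up to 0.188), and Furin was chosen after its values were seen.

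Of 18 tested microfibril-associated genes outside the 10, 9 were lower and 3 higher, against the same background, with a median log2 difference of -1.57. Emilin1 and Emilin2, glycoproteins at the elastin and microfibril interface, were at 0.0852 and 0.221 TPM against 34.2 and 19.0 TPM and at 0.353 and 0.159 TPM against 33.5 and 9.29 TPM. Efemp1, a fibulin, was at 4.31 and 4.66 TPM against 109 and 44.0 TPM, and Ltbp2, which binds fibrillin, at 0.316 and 0.349 TPM against 24.9 and 5.32 TPM. These 4 genes were lower, a direction that the filter fixed for Emilin1, Emilin2 and Ltbp2. Ltbp3, which holds latent TGF-beta, overlapped between the groups, at 19.8 and 18.6 TPM against 42.9 and 13.8 TPM (limma adjusted p = 0.612). The 3 higher genes, named after their values were seen, were Mfap3l, Mfap1a and Mfap1b. Mfap1a and Mfap1b carry a microfibril name but encode a near-identical pair of splicing proteins whose reads may be shared. Their calls were lost under each other scaling (limma adjusted p up to 0.857 and 0.968), and the Mfap1b difference turned from 1.25 to -0.19 with median-of-ratios and -0.02 with haemoglobin left out. Mfap3l was at 16.04 and 12.7 TPM against 1.42 and 1.49 TPM, and its call was lost with haemoglobin left out (adjusted p = 0.0517).

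Of 9 receptor genes 1 was lower and 1 higher on deposited TPM, beside 9.48% and 57% of all tested genes. Their median log2 difference of 0.40 lay under the 1.27 of all genes. That median turned to -1.16 with median-of-ratios scaling, -0.95 with quantile normalization and -0.99 with haemoglobin left out. Under these 3 scalings 4, 3 and 3 receptor genes were lower, beside 13.6%, 11.3% and 10.8% of all tested genes. Itgb5, an integrin chain, and Ctsa, part of the elastin receptor complex, were lower under all 3 of these and not on deposited TPM (both chosen after their values were seen). Itgb3, a chain of the vitronectin receptor that also binds fibrillin, was lower in Itga6hi CD80pos, at 0.0944 and 0.142 TPM against 5.43 and 2.85 TPM, with a limma adjusted p of 0.00703. Itgb6, an epithelial integrin chain that binds fibrillin and latent TGF-beta, was higher, at 3.67 and 4.98 TPM against 0.186 and 0.541 TPM, with an adjusted p of 0.00682, a call that 2 of the 4 scalings kept. Itgb1, the common beta chain, was at 79.8 and 184 TPM against 80.9 and 104 TPM and did not pass (adjusted p = 0.524). Among elastin-degrading enzymes 3 of 5 tested were lower on deposited TPM, beside 9.48% of all tested genes. The filter fixed that direction for Ctsk and Prtn3, as for Itgb3. Ctsk, a cathepsin that cuts elastin and collagen, was at 0.315 and 0.494 TPM against 327 and 599 TPM, Mmp2, a gelatinase, at 19.2 and 7.38 TPM against 401 and 201 TPM, and Prtn3, a neutrophil proteinase, at 0.0640 and 0.229 TPM against 1.88 and 2.20 TPM. Ctsl, a broadly expressed cathepsin, was at 47.6 and 129.9 TPM against 200.3 and 238 TPM, without overlap, and did not pass on deposited TPM (limma adjusted p = 0.0723). It was called lower under each other scaling, at a log2 difference from -2.77 to -3.02 and an adjusted p from 0.0259 to 0.0338.

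**Figure D4:**
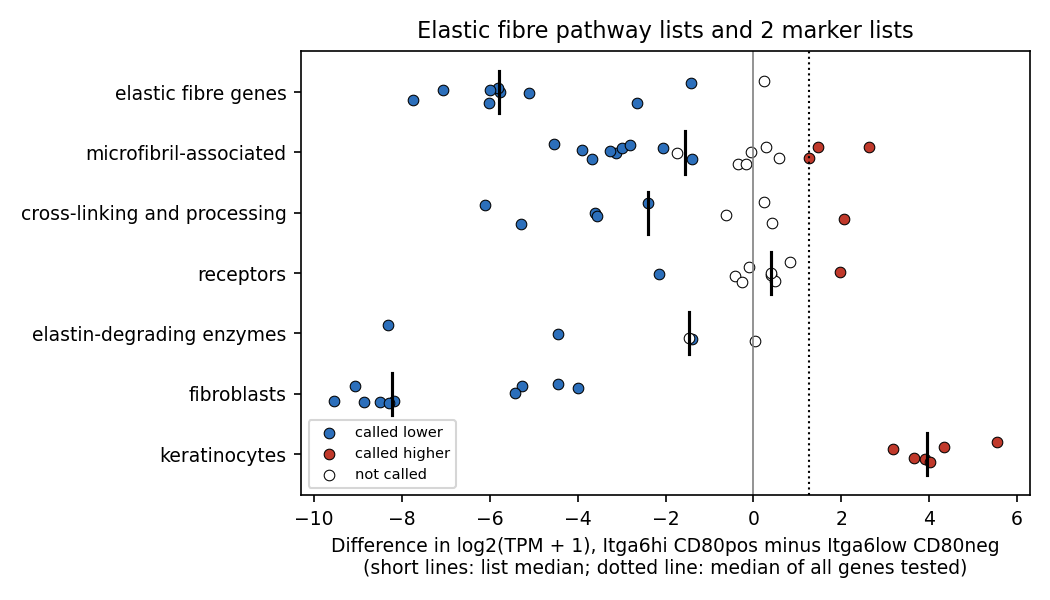
Difference in log2(TPM + 1), Itga6hi CD80pos minus Itga6low CD80neg, for tested genes of the elastic fibre lists and of 2 marker lists, coloured by limma call; short lines are list medians and the dotted line is the median of all genes, 1.27. The median of the elastic fibre genes (-5.78) lies between that of the fibroblast markers (-8.23) and those of the other pathway lists.

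The 2 Itga6low CD80neg libraries differed from each other by unequal amounts across the elastic fibre genes. Over 10831 tested genes above 1 TPM in both, the ratio of replicate 1 to replicate 2 had a median of 0.772, and 5% and 95% of genes lay below 0.316 and 2.40. Fbn1 stood at 4.92 and Eln at 4.85, above 99.4% and 99.3% of these genes. Fbn2 followed at 3.23, and Col1a1, a fibrillar collagen, stood at 3.66. Mfap4 was at 0.983, Mfap2 at 1.00, Mfap5 at 1.11, Fbln5 at 1.17 and Fbln2 at 1.24, with Lox at 1.51 and Fbln1 at 2.19. With haemoglobin left out of the total every ratio rose by the same factor, to 8.40 for Fbn1, 8.28 for Eln, 1.71 for Mfap2 and 1.68 for Mfap4, and the median of all these genes to 1.32. Fbn1, Eln and Fbn2 were thus the genes of the 10 with the widest gap between these libraries, and Mfap4 and Mfap2 those with the narrowest on deposited TPM. The longest annotated transcripts of Fbn1 and Fbn2 have 11971 and 11041 bases and that of Eln 3853, against 1073 for Mfap2, 1770 for Mfap4 and 5829 for Fbln5. With 1 library on each side there is no test of this pattern.

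**Figure D5:**
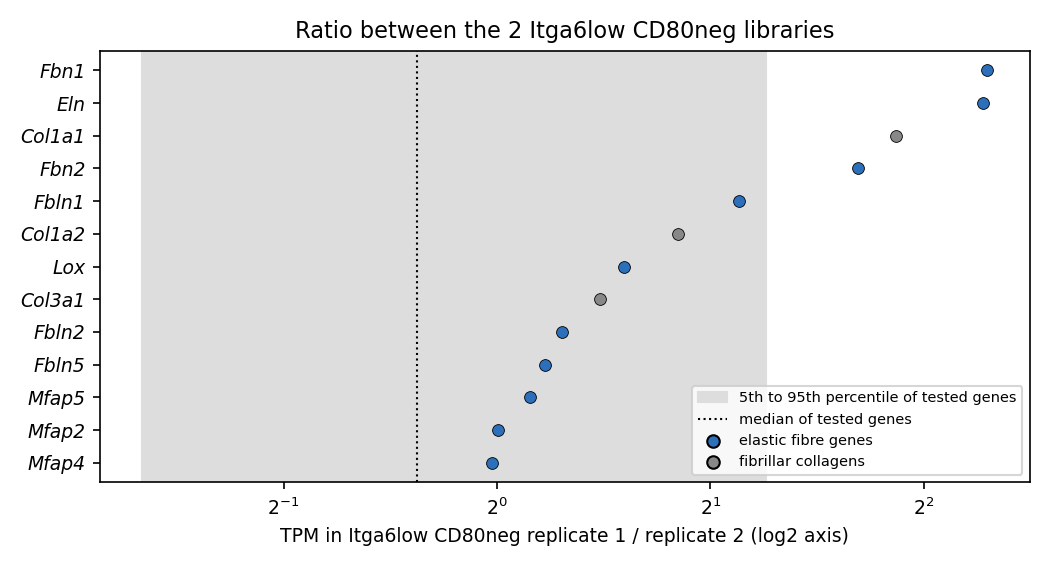
Ratio of TPM in Itga6low CD80neg replicate 1 to replicate 2 (log2 axis) for the 10 genes (blue) and 3 fibrillar collagens (grey); the shaded band holds 5% to 95% of tested genes and the dotted line is their median. Fbn1 (4.92), Eln (4.85), Col1a1 (3.66) and Fbn2 (3.23) lie beyond the band, and Mfap4 (0.983) lies near 1.

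The 5 genes whose values were most like the mean pattern of the 10 were Thbs3, Prrx1, Fgl2, Emilin1 and Thbs4, by Euclidean distance over the 4 libraries between centred log2(TPM + 1) values (0.17 to 0.24). Thbs3, a thrombospondin of the matrix, was at 0.567 and 0.326 TPM against 48.0 and 28.3 TPM, and Prrx1, a mesenchymal transcription factor, at 0.0561 and 0.0964 TPM against 43.4 and 21.7 TPM. Among the 10 genes themselves, Lox lay nearest to that mean (0.41) and Fbln1 farthest (4.996). With 4 libraries in 2 groups, such a distance mostly reflects the size of the difference between the groups.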

How the data were processed

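Libraries were prepared from polyadenylated RNA with NEBNext reagents for low input, per the labels' protocols. The authors deposited TPM per gene, which sum to 1000000 in each library, made with kallisto 0.44.0 and mm10, per the submitters' processing notes; annotation, summing to genes and filters are not given in the sources used here. Coordinates are from GENCODE M21 (GRCm38). Genes that reached 1 TPM in 2 or more of the 4 libraries were tested on log2(TPM + 1) with limma 3.58.1 in R 4.3.3 (lmFit, eBayes with trend, two-sided), over all genes, on 2 residual and 3.33 prior degrees of freedom; all 10 genes passed this filter, 8 of them through Itga6low CD80neg alone. The test was checked on simulated data. An exact permutation test of 2 against 2 libraries cannot go below 0.333, so none is given.

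The members and lists were chosen with earlier results of these data known. Named genes were the 10, up to 4 called and 1 uncalled gene per pathway list, and the most abundant marker per cell type. Itga6, Cd80 and the 5 nearest genes were named too. Others are said to have been chosen after their values were seen. Exceptions are S100a8, Mapk7 and the other genes with overlapping exons, the collagens of the quotient and the endothelial markers, which are all named. Alternatives were pseudocounts of 0.1 and 5, 2 other filters, 3 scalings, a replicate block and leaving out each library. Protein sequences were not used here.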

Additional observations from a re-analysis of the deposited data

How the results depend on the processing

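The number of the 10 genes called lower was 9 as reported and 8 or 9 under the other pseudocounts, filters and scalings, and ran from 0 to 9 when 1 library was left out. Over the whole table, 7686 genes were higher and 1277 lower. Without the filter on low values 4564 were higher, with a mean of at least 5 TPM 613 were lower, and the higher calls were 839 with median-of-ratios scaling, 1448 with quantile normalization and 1040 with haemoglobin genes left out. Leaving out 1 library gave 0 to 8227 higher and 0 to 1237 lower. The cause of these changes was not tested, except that the mean filter tests fewer genes. The Fbln1 difference turned to -1.31, -1.16 and -1.14 under the 3 scalings, and ran from -0.31 to 0.80 when 1 library was left out. The labels do not say that equal replicate numbers mark shared animals or days, and the correlation between the replicate differences of the populations was 0.109 across genes. With the replicate number as a block, on 1 residual degree of freedom, 9 of the 10 genes were lower, and no call among the 10 changed. In all, 8044 genes were higher and 1452 lower. In that fit the prior degrees of freedom were infinite, so the trend over all genes set each variance. The own spread of a gene played no part, and the block is therefore not a stricter test. Depth is unknown, so values far under 1 TPM have no stated detection limit.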
